A study of Homo sapiens with 18 samples.

Results

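The genes described here present peptides on MHC class I, the surface molecule that CD8+ T cells read. They were listed by name, not picked by a threshold on measured values, but earlier results of these data were known. They are the class I heavy chains HLA-B, HLA-C and HLA-E, the light chain B2M and the peptide transporter subunits TAP1 and TAP2. The list also holds the loading chaperone TAPBP and the immunoproteasome subunits PSMB8 and PSMB9. Of these 9 genes, 8 had a row among the 20705 genes of the count table, and TAP1 was not analysed here. RNA was sequenced from CHL1 and A375, established human melanoma cell lines, with 2 replicates in each of 9 groups, which gave 18 libraries. The labels give the genotype of both lines as WT, and the study's methods describe CHL1 as wild type for BRAF and NRAS with mutant p53, and A375 as BRAF-mutant with wild-type p53. CHL1 had 4 groups. Its control received DMSO, the solvent of the drugs, for 72 hours, and the others received 1 μM palbociclib for 72 hours, 1 μM palbociclib for 6 days, or 500 nM GSK3326595 for 72 hours. A375 had the same treatments and doses in 5 groups, with a DMSO control at 72 hours and another at 6 days. Palbociclib inhibits the cell cycle kinases CDK4 and CDK6 (CDK4/6i), and GSK3326595 inhibits the arginine methyltransferase PRMT5 (PRMT5i). CHL1 had no control at 6 days, so its 6-day libraries were compared with the 72-hour control. The treatment notes state that 2 replicates were grown per condition and say nothing more of their origin, so the p-values measure the spread between these cultures, which may be technical.

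Proteins in the cytosol are cut into peptides by the proteasome. In cells exposed to interferon, PSMB8 and PSMB9 replace catalytic subunits of the standard proteasome and shift which peptides are made. The TAP transporter carries peptides into the endoplasmic reticulum, where TAPBP (tapasin) holds an empty heavy chain bound to B2M next to TAP until a peptide fits. HLA-B and HLA-C are classical heavy chains, whereas HLA-E is a nonclassical one that is read mainly by receptors of natural killer cells. Melanomas are known to lose or lower class I, and interferon signalling and the transactivator NLRC5 are known to raise it.

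Class I promoters share short regulatory elements, and the 250 bases before the transcription start of 4 genes are printed because the heavy chains, B2M and TAPBP moved by different amounts below. The sequences come from RefSeq (GRCh38.p14), are written 5′ to 3′ on the strand of the gene, and carry in capitals the matches to 5 motifs searched on both strands. The motifs were the core of the interferon response element (GAAA, any 2 bases, GAAA), TTCNNNGAA (STAT-bound GAS element), TGACG (core of the cyclic AMP response element), CCAAT (the NF-Y box) and the NF-kB site. Over 35114 promoters of this length, 3.02% held the interferon core, 6.57% the GAS element, 21.2% TGACG, 32.0% CCAAT and 9.96% the NF-kB site.
HLA-B, chr6:31357180-31357429, minus strand: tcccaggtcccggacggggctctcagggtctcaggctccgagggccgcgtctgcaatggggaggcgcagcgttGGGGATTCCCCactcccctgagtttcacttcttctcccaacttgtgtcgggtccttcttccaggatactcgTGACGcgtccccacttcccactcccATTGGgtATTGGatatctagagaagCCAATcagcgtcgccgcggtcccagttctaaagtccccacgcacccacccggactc
HLA-C, chr6:31272093-31272342, minus strand: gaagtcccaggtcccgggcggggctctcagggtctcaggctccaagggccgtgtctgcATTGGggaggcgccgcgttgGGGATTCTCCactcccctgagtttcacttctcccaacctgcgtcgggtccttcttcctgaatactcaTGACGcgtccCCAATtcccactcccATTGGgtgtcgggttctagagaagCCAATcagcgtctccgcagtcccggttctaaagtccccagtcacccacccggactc
B2M, chr15:44711267-44711516, plus strand: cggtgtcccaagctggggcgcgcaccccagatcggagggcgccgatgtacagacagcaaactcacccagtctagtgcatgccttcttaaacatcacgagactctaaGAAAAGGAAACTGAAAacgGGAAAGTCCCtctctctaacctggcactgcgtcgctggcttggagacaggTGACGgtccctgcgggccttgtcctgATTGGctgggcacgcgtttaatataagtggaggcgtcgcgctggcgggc
TAPBP, chr6:33314079-33314328, minus strand: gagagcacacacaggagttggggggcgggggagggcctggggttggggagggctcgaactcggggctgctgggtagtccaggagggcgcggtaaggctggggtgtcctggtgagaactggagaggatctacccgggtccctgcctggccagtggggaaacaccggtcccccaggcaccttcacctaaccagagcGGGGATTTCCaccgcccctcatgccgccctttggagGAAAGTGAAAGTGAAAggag

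The HLA-B and HLA-C windows were alike, with 226 of 254 aligned columns identical (89.0%). Both held an NF-kB site, with its first base 177 bases before the start in HLA-B and 172 in HLA-C, and a TGACG core starting at 106 and 105. HLA-B held 3 CCAAT boxes and HLA-C held 4, and both had a box starting 56 bases before the start. Neither window matched the interferon core as searched here. That core is an exact pattern that misses interferon response elements spelled otherwise, so no match does not mean that the element is absent. The B2M window held overlapping interferon cores starting at 144 and 138, an NF-kB site at 125, TGACG at 75 and a CCAAT box at 49. TAPBP held overlapping interferon cores at 20 and 14 and an NF-kB site at 56, and no TGACG or CCAAT in this window. TAP2 held an interferon core at 58 and TGACG at 35, and PSMB9 held TGACG at 144 and CCAAT at 243. PSMB8 held TGACG at 69 before 1 of its starts and a GAS element at 65 before the other, the only GAS match found. A letter match is a description of these windows and was not linked to the expression values.

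Each library held between 16213475 and 37424081 counts (median 27906170.5). Levels are given as CPM, the counts of a gene scaled to library size after TMM normalisation, and levels of different genes are compared only as CPM per kilobase of transcript. In 4 libraries the measured level depended strongly on a gene's GC content, called the GC trend below, and elsewhere the dependence was weaker. Genes were ranked by GC content, and the shift of the bottom 10% was subtracted from the shift of the top 10%. Each shift was a median on the log2 scale, measured against the gene's median over all libraries of the line, treated ones included. This difference lay between -0.17 and 0.50 except in CHL1 under PRMT5i, where it reached -2.49 and -1.98, and in A375 controls of 6 days, where it reached -2.27 and -1.12. Many of the fold changes that rest on these libraries are therefore also given after a correction for the GC trend, while CPM values and ratios are uncorrected. Of 10 melanocyte lineage markers, 7 were in the table and their summed level was 143 to 540.3 CPM. MITF was 63.8 to 144 CPM in CHL1 and 81.3 to 211 CPM in A375, and DCT 36.3 to 142 CPM and at most 1.79 CPM. PMEL, TYRP1 and TYR reached at most 3.25, 4.01 and 5.02 CPM in any library. Of 4 epithelial markers, 3 were in the table, at 2.55 to 5.86 CPM summed in CHL1. In A375 they summed to 182 to 237 CPM at 72 hours and 18.6 to 38.9 CPM at 6 days. Of 9 leukocyte markers, 4 were in the table. Their summed level in CHL1 was 7.84 to 8.29 CPM in the controls, 9.99 to 12.6 and 17.7 to 17.8 CPM with CDK4/6i at 72 hours and 6 days, and 14.7 to 16.6 CPM with PRMT5i. In A375 it was 2.17 to 2.83 and 4.51 CPM in the 72-hour and 6-day controls, 8.96 to 9.51 and 16.5 to 23.1 CPM with CDK4/6i, and 3.18 to 4.92 CPM with PRMT5i. CD14 and ITGAM reached at most 0.713 and 0.429 CPM in any library, and the part of these markers in the results was not tested. Bulk RNA cannot tell fewer expressing cells from less RNA per cell.

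Reads of HLA genes are hard to assign, because the heavy chain genes are near copies of each other and differ between people. The counting tool drops reads that align to several genes, so the division of reads among HLA-B, HLA-C, HLA-E and other heavy chain genes is uncertain, more so between the lines than within a line. In the GRCh37 annotation (GENCODE 44), HLA-E (chromosome 6, 30457286-30461971, plus strand), HLA-C (31236526-31239907, minus) and HLA-B (31321649-31334844, minus) lie in the class I region. PSMB8 (32808494-32812456, minus) and PSMB9 (32811913-32827628, plus) lie next to each other on the same chromosome and overlap at their ends, and TAP1 (32812986-32821593, minus) lies within the span of PSMB9. The study's methods name the default settings of the counting tool, which use strand, but whether the library kit kept strand is not given in the sources used here, so reads of these neighbours may be shared. TAP2 lies at 32789610-32806516 and TAPBP at 33267471-33282061 (both minus), and B2M lies on chromosome 15 at 45003556-45011049 (plus).

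B2M had the highest level in every group, and the order of the other genes differed between the lines. In the CHL1 72-hour control, B2M measured 191 ± 18.2 CPM per kilobase (SD, n = 2), HLA-C 39.9 ± 5.63, TAPBP 22.4 ± 0.690, HLA-E 16.9 ± 0.600, PSMB8 12.2 ± 0.325, HLA-B 7.47 ± 1.30, TAP2 6.95 ± 0.424 and PSMB9 1.86 ± 0.132. HLA-B and TAP2 differed by less than the larger of their SDs, and every other neighbouring pair in that order differed by more. In the A375 72-hour control, B2M measured 371 ± 44.6 CPM per kilobase, HLA-C 26.9 ± 1.04, PSMB8 25.5 ± 3.31, TAPBP 20.8 ± 0.152, TAP2 16.5 ± 1.75, HLA-E 16.4 ± 0.724, PSMB9 11.8 ± 1.42 and HLA-B 9.28 ± 0.149. HLA-C and PSMB8, and TAP2 and HLA-E, were within their spread of each other.

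Untreated CHL1 held less PSMB9, TAP2, PSMB8 and B2M than untreated A375. Of the 8 genes, 4 were lower and 1 higher in CHL1 than in A375 (edgeR quasi-likelihood test, Benjamini-Hochberg adjusted p under 0.05), against 58.9% of all genes called in either direction. PSMB9 was 6.35-fold lower in CHL1 (edgeR adjusted p = 1.70e-07), with log2 difference -2.67 ± 0.28 (SE). TAP2 differed by -1.25 ± 0.17, PSMB8 by -1.07 ± 0.25 and B2M by -0.96 ± 0.21 on the log2 scale. HLA-C was higher in CHL1 by 0.57 ± 0.22 (edgeR adjusted p = 0.0326), and this call was lost in 3 of 4 fits that left out a library. HLA-B, HLA-E and TAPBP were not called. With GC correction 3 of the 8 genes were called higher in CHL1 and 4 lower, beside 10813 of 16363 genes called in either direction. The CHL1 and A375 72-hour libraries come from different library sets, so line and set cannot be told apart. Against the A375 6-day control, which is in the same set as CHL1 but carries the GC trend, the log2 differences were smaller for PSMB9 (-1.22), TAP2 (-0.46) and B2M (-0.70), and the PSMB8 difference turned to 0.23. There HLA-B was lower by -1.33, and HLA-C, HLA-E and TAPBP were higher by 1.17, 0.56 and 0.60, all called (edgeR adjusted p of 0.00588 or less for these 4). The differences against the 6-day control were not corrected for GC.

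**Figure D1:**
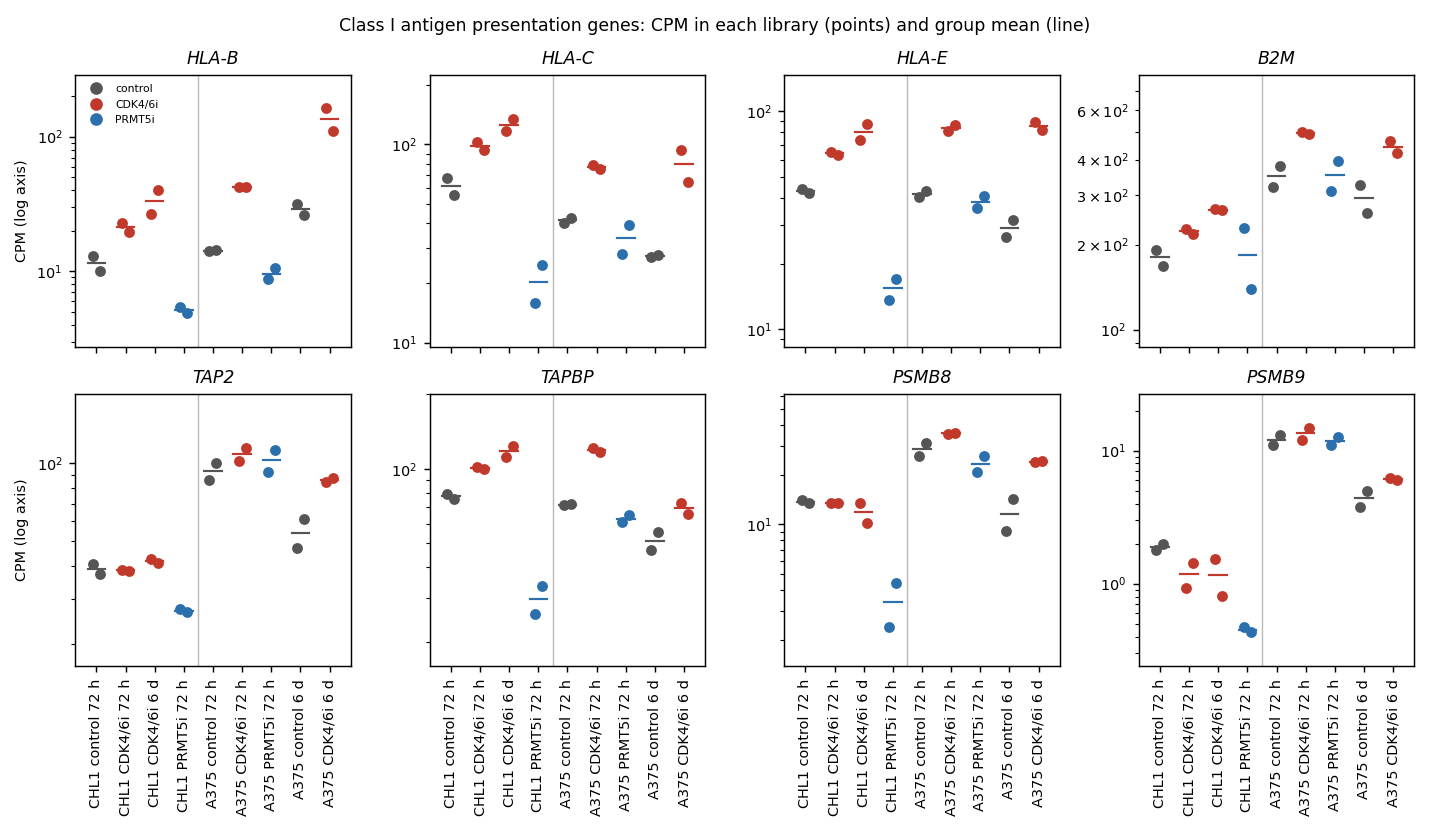
CPM (log axis) of the 8 genes in each of the 18 libraries by line, treatment and time; points are libraries, lines are group means, and the vertical line separates CHL1 (left) from A375 (right). HLA-B rose from 14.1 and 14.4 CPM to 42.2 and 42.2 CPM with CDK4/6i at 72 hours in A375, while PSMB9 in CHL1 did not exceed 1.99 CPM in any library.

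HLA-B, HLA-C and HLA-E had the highest log2 fold changes of the 8 genes with CDK4/6i, in both lines and at both times. With GC correction these 3 were still the highest in CHL1, whereas in A375 B2M (0.65) passed HLA-C (0.61) at 72 hours, and B2M (1.28) passed HLA-E (1.05) and HLA-C (0.96) at 6 days. In CHL1, 1 of the 8 genes was called higher and 0 lower at 72 hours, against 2.27% and 2.72% of all genes, and 4 higher and 0 lower at 6 days, against 8.83% and 7.80%. In A375, 4 were higher and 0 lower at 72 hours, against 6.22% and 7.11%, and 6 higher and 0 lower at 6 days, against 21.8% and 21.3%. The median log2 fold change of the 8 genes was 0.34 and 0.60 in CHL1 and 0.56 and 0.85 in A375 (72 hours and 6 days), beside 0.00, 0.03, 0.00 and 0.10 for all genes. Both times of CHL1 use the same control libraries. The summed leukocyte markers given above were higher with CDK4/6i as well, mostly through PTPRC in CHL1 and LYZ in A375.

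HLA-B, which had the largest fold change of these 3 heavy chains, is known to respond to interferon. In CHL1 it measured 12.9 and 10.1 CPM in the controls, 22.9 and 19.5 CPM after 72 hours of CDK4/6i and 26.5 and 40.4 CPM after 6 days. In A375 it measured 14.1 and 14.4 CPM in the 72-hour controls against 42.2 and 42.2 CPM with CDK4/6i, and 31.7 and 26.0 CPM in the 6-day controls against 162 and 109.8 CPM. Every treated library lay above every control of its comparison. The rise was 1.84-fold in CHL1 at 72 hours (log2 0.88 ± 0.22, edgeR adjusted p = 0.0444) and 2.93-fold at 6 days (1.55 ± 0.23, adjusted p = 0.00145). In A375 it was 2.84-fold at 72 hours (1.51 ± 0.21, edgeR adjusted p = 0.000218) and 4.71-fold at 6 days (2.24 ± 0.21, adjusted p = 3.84e-06). The CHL1 call at 72 hours was lost in each of 4 fits that left out a library, with adjusted p from 0.149 to 0.373, whereas the others held in all. After GC correction the HLA-B changes were 0.87, 1.57, 1.41 and 1.82 in the same order, all called.

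HLA-C, a classical heavy chain that also binds killer cell receptors, changed less than HLA-B. It measured 67.6 and 55.3 CPM in the CHL1 controls, 103 and 93.7 CPM with CDK4/6i at 72 hours and 117 and 135 CPM at 6 days. In A375 HLA-C read 40.3 and 42.6 CPM against 78.8 and 75.1 CPM at 72 hours, and 26.9 and 27.7 CPM against 94.3 and 64.5 CPM at 6 days. Treated and control libraries did not overlap in any of the 4 comparisons. HLA-C rose 2.07-fold in CHL1 at 6 days (log2 1.05 ± 0.21, edgeR adjusted p = 0.00625), 1.78-fold in A375 at 72 hours (0.84 ± 0.21, adjusted p = 0.0148) and 2.91-fold in A375 at 6 days (1.54 ± 0.21, adjusted p = 6.90e-05). At 72 hours in CHL1 its log2 difference of 0.68 ± 0.20 was not called (edgeR adjusted p = 0.0811). The CHL1 6-day call was lost without control replicate 2 (edgeR adjusted p = 0.0942), and the A375 72-hour call in each of 4 fits without a library (0.0862 at the lowest). With GC correction the HLA-C changes in CHL1 were 0.50 and 0.82, both called, the A375 72-hour change was 0.61 (edgeR adjusted p = 0.0513) and the 6-day change 0.96 (0.00399).

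HLA-E followed HLA-C closely, and across the 18 libraries their Pearson correlation was 0.99, a description over libraries that share lines and the GC trend. HLA-E measured 44.2 and 42.0 CPM in the CHL1 controls, 65.1 and 63.2 CPM with CDK4/6i at 72 hours and 73.8 and 87.3 CPM at 6 days. A375 held 40.6 and 43.2 CPM against 81.2 and 86.5 CPM at 72 hours, and 26.5 and 31.8 CPM against 89.5 and 82.1 CPM at 6 days. Again no treated library overlapped its controls. HLA-E rose 1.89-fold in CHL1 at 6 days (log2 0.92 ± 0.17, edgeR adjusted p = 0.00436), 1.92-fold in A375 at 72 hours (0.94 ± 0.18, adjusted p = 0.00234) and 2.93-fold in A375 at 6 days (1.55 ± 0.18, adjusted p = 1.74e-05). The CHL1 difference at 72 hours, 0.57 ± 0.17, was not called (edgeR adjusted p = 0.0701). The CHL1 6-day call was lost without control replicate 2 (edgeR adjusted p = 0.0684), and the A375 calls held without any library. With GC correction the HLA-E changes were 0.52 and 0.89 in CHL1 and 0.82 and 1.05 in A375, all called.

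B2M, the light chain without which no classical heavy chain reaches the surface, had smaller fold changes than the 3 heavy chains before GC correction. It measured 192 and 168 CPM in the CHL1 controls, 227 and 218 CPM with CDK4/6i at 72 hours and 268 and 264 CPM at 6 days. The A375 values were 320.1 and 379.6 CPM against 500.0 and 492 CPM at 72 hours, and 326 and 258 CPM against 466 and 421 CPM at 6 days. Treated libraries lay above the controls in all 4 comparisons, but only the A375 6-day difference was called, at 1.52-fold (log2 0.60 ± 0.19, edgeR adjusted p = 0.0196), and it was lost without CDK4/6i 6-day replicate 1 (adjusted p = 0.117). The other log2 differences were 0.31 ± 0.21 and 0.58 ± 0.21 in CHL1 at 72 hours and 6 days and 0.45 ± 0.19 in A375 at 72 hours. B2M is GC-poor (38.9% GC in its longest transcript), so the GC correction moved it opposite to the heavy chains, to 0.65 in A375 at 72 hours (edgeR adjusted p = 0.0104) and 1.28 at 6 days (0.000144), above HLA-C at both times.

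TAPBP, the chaperone that bridges heavy chain and transporter, measured 79.1 and 75.7 CPM in the CHL1 controls, 102 and 99.7 CPM with CDK4/6i at 72 hours and 112 and 124 CPM at 6 days. For A375 the values were 71.2 and 72.0 CPM against 121 and 117 CPM at 72 hours, and 47.0 and 55.5 CPM against 72.6 and 66.0 CPM at 6 days. It rose 1.54-fold in CHL1 at 6 days (log2 0.62 ± 0.16, edgeR adjusted p = 0.0235) and 1.60-fold in A375 at 72 hours (0.67 ± 0.17, adjusted p = 0.0156). Its differences of 0.38 ± 0.16 in CHL1 at 72 hours and 0.43 ± 0.17 in A375 at 6 days (edgeR adjusted p = 0.0507) were not called, and the A375 6-day value turned to -0.12 with GC correction. Both TAPBP calls were sensitive to single libraries. The CHL1 call was lost without control replicate 1 (log2 0.65), control replicate 2 (0.59) or CDK4/6i 6-day replicate 2 (0.56), with edgeR adjusted p up to 0.183, and the A375 call without any of 4 libraries (0.112 to 0.142).

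TAP2, a subunit of the peptide transporter, stayed near its controls in CHL1, with 40.9 and 37.5 CPM in the controls, 38.8 and 38.4 CPM with CDK4/6i at 72 hours and 42.8 and 41.3 CPM at 6 days. A375 libraries measured 86.2 and 100.1 CPM against 102 and 115 CPM at 72 hours, and 47.0 and 61.1 CPM against 85.0 and 87.5 CPM at 6 days. TAP2 rose in A375 at 6 days, 1.59-fold (log2 0.67 ± 0.19, edgeR adjusted p = 0.0105; 0.57 with GC correction), and this was lost without CDK4/6i 6-day replicate 2 (adjusted p = 0.0524). The other 3 log2 differences were -0.03, 0.11 and 0.16, none called. The A375 difference between 6 days and 72 hours, 0.51, was not called either (edgeR adjusted p = 0.300).

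PSMB8 and PSMB9, the interferon-inducible catalytic subunits, did not rise with CDK4/6i in CHL1. PSMB8 measured 14.0 and 13.4 CPM in the CHL1 controls, 13.4 and 13.4 CPM at 72 hours and 13.5 and 10.2 CPM at 6 days. In A375 PSMB8 read 26.1 and 31.3 CPM against 35.2 and 36.0 CPM at 72 hours, and 9.07 and 14.2 CPM against 23.8 and 24.1 CPM at 6 days. The A375 6-day rise was 2.04-fold (log2 1.03 ± 0.23, edgeR adjusted p = 0.00206) and 0.60 on the log2 scale with GC correction (adjusted p = 0.00922). Set against the 72-hour A375 control, however, the 6-day libraries were not higher, with a PSMB8 difference of -0.30. PSMB9 was scarce in CHL1, at 1.80 and 1.99 CPM in the controls (52 and 56 reads), 0.933 and 1.44 CPM at 72 hours and 1.52 and 0.811 CPM at 6 days. In A375 PSMB9 read 11.0 and 13.0 CPM against 12.0 and 14.9 CPM at 72 hours, and 3.79 and 5.01 CPM against 6.23 and 5.98 CPM at 6 days. PSMB9 was not called in any of the 4 comparisons, with log2 differences of -0.67 ± 0.35 and -0.65 ± 0.35 in CHL1 and 0.10 and 0.47 ± 0.24 in A375.

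**Figure D2:**
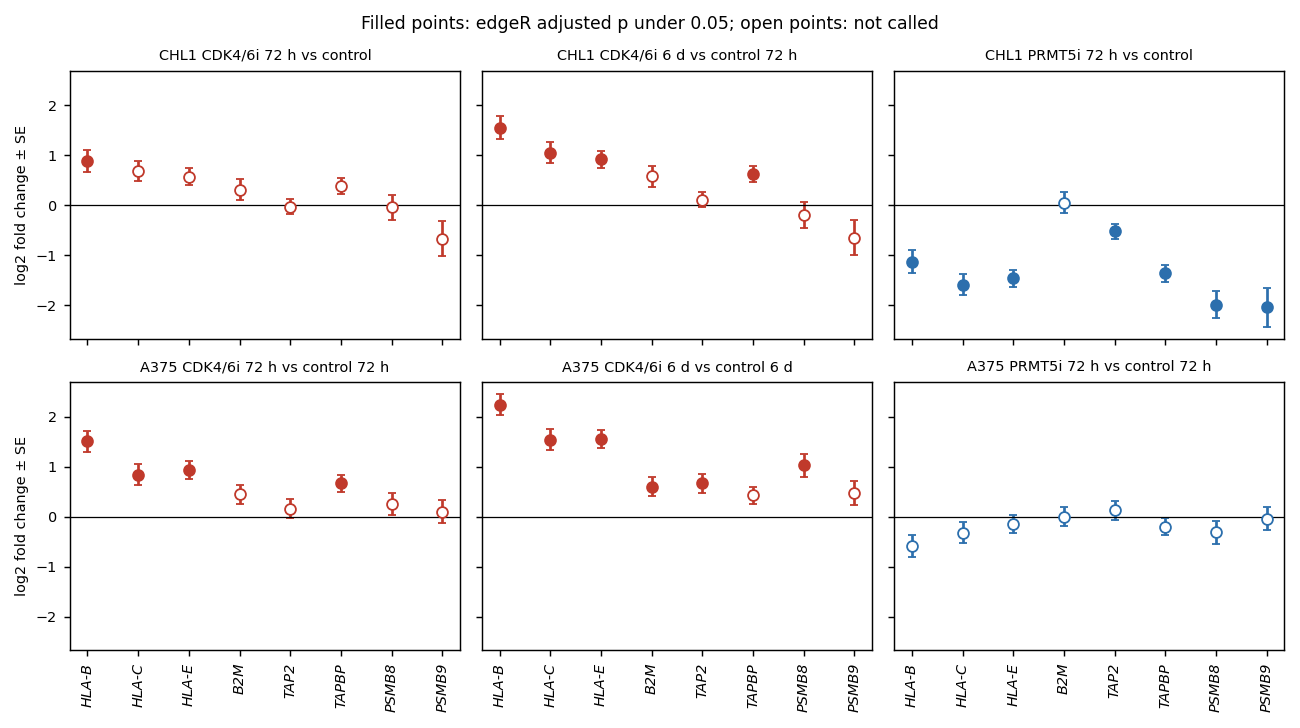
Log2 fold change ± SE of the 8 genes in the 6 treatment comparisons, fitted with edgeR over 2 libraries a group; filled points have an adjusted p under 0.05 and open points do not, red is CDK4/6i and blue is PRMT5i. The heavy chains are the highest points with CDK4/6i, from 0.57 to 2.24, and 7 genes lie below 0 with PRMT5i in CHL1 while in A375 no gene was called.

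Because the genes did not move equally, their ratios shifted. Per base, HLA-B was 19.1 and 18.3% of HLA-C in the CHL1 controls, 22.2 and 20.9% with CDK4/6i at 72 hours and 22.8 and 30.0% at 6 days. In A375 it was 35.1 and 34.0% in the 72-hour controls against 53.7 and 56.4% with CDK4/6i, and 118 and 94.0% in the 6-day controls against 172 and 171%. HLA-B thus exceeded HLA-C in both treated A375 libraries of 6 days and in 1 of the 2 untreated ones, in which the GC trend also differs between these genes. PSMB8 was 49.0 and 45.7% of PSMB5, the standard subunit it replaces, in the A375 72-hour controls and 18.7 and 20.4% in CHL1. PSMB9 was between 10.3 and 17.9% of PSMB6 in A375 and between 1.86 and 4.39% in CHL1.

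**Figure D3:**
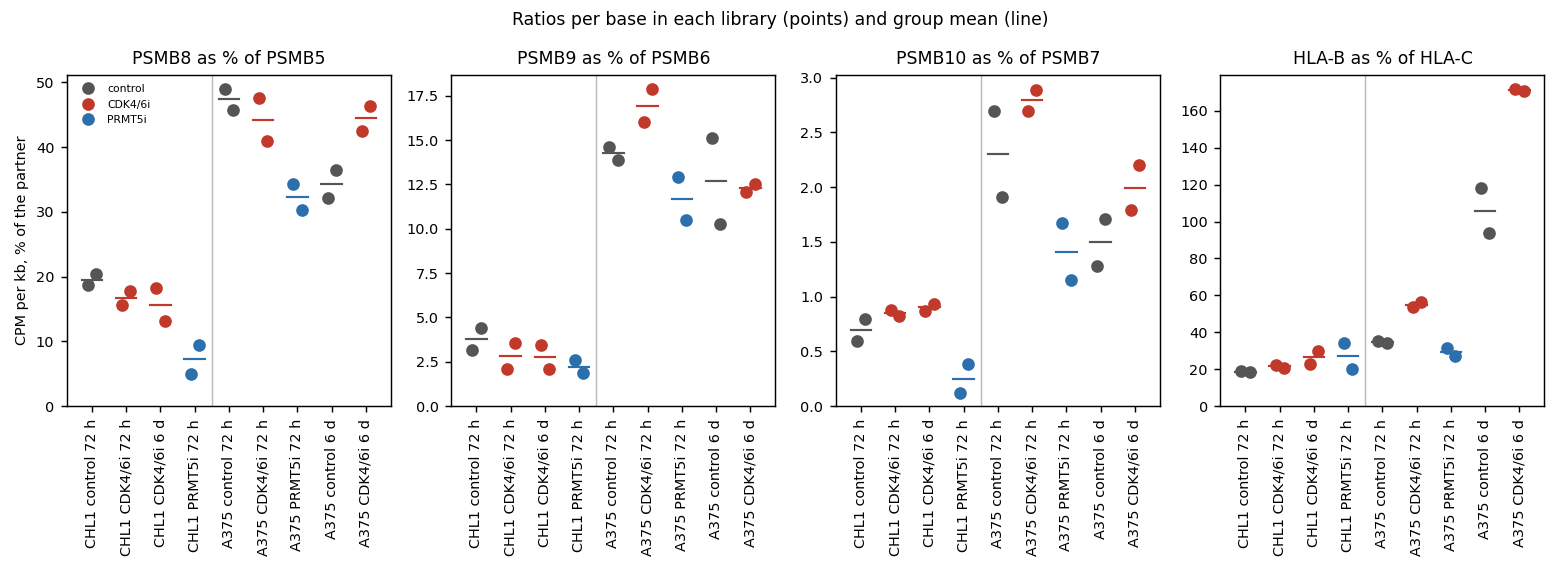
Ratio of CPM per kilobase, in percent, of each immunoproteasome subunit to the standard subunit it replaces and of HLA-B to HLA-C, by library (points) with the group mean (line); CHL1 is left and A375 right of the vertical line. HLA-B reached 172 and 171% of HLA-C in A375 after 6 days of CDK4/6i, and PSMB8 fell to 5.02 and 9.42% of PSMB5 in CHL1 with PRMT5i.

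With PRMT5i the lines differed. In CHL1, 7 of the 8 genes were called lower and 0 higher, against 27.6% lower and 26.4% higher among all genes, and the median log2 change of the 8 was -1.41 beside 0.00. In A375, 0 were called in either direction by edgeR, by DESeq2 or by limma voom, against 1.74% lower and 0.874% higher, and 1 of 8 had an unadjusted p under 0.05. The CHL1 PRMT5i libraries carry the GC trend, and genes in the same GC decile as HLA-C had a median change of -1.37, as HLA-E and TAPBP -1.03, as HLA-B and PSMB8 -0.63, as TAP2 and PSMB9 0.10, and as B2M 0.95.

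By the GC of the longest transcript, the proteasome subunits stood furthest from that trend. Their canonical transcripts hold more GC, at 54.9% for PSMB8 and 52.4% for PSMB9, against 53.8% and 46.9% in the longest. Distances from the trend were not ranked by canonical GC. In CHL1, PSMB8 measured 14.0 and 13.4 CPM in the controls and 2.38 and 4.44 CPM with PRMT5i, a 3.96-fold lower level (log2 -1.99 ± 0.27, edgeR adjusted p = 0.000173). PSMB9 measured 1.80 and 1.99 CPM against 0.469 and 0.430 CPM (14 and 12 reads), 4.11-fold lower (-2.04 ± 0.39, edgeR adjusted p = 0.000980). With GC correction PSMB8 was lower by -1.27 (edgeR adjusted p = 0.00159) and PSMB9 by -2.06 (0.00256) on the log2 scale. PSMB8 fell from 18.7 and 20.4% of PSMB5 in the controls to 5.02 and 9.42%. PSMB9 moved less against its partner, from 3.19 and 4.39% of PSMB6 to 2.60 and 1.86%. The same ratios in A375 were 49.0 and 45.7% against 34.3 and 30.3% for PSMB8, and 14.6 and 13.9% against 12.9 and 10.5% for PSMB9. In A375, PSMB8 measured 26.1 and 31.3 CPM in the controls and 20.9 and 25.9 CPM with PRMT5i, and PSMB9 11.0 and 13.0 against 11.0 and 12.7 CPM. Neither A375 difference was called, and the PSMB9 values overlapped.

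The 3 heavy chains also read lower in CHL1. HLA-C measured 67.6 and 55.3 CPM in the controls and 15.9 and 24.6 CPM with PRMT5i, 3.00-fold lower (log2 -1.59 ± 0.21, edgeR adjusted p = 0.000151). HLA-E measured 44.2 and 42.0 against 13.7 and 17.1 CPM, 2.76-fold lower (-1.46 ± 0.17, edgeR adjusted p = 9.62e-05). HLA-B measured 12.9 and 10.1 against 5.43 and 4.91 CPM, 2.19-fold lower (-1.13 ± 0.23, edgeR adjusted p = 0.00157). With GC correction HLA-E stayed lower at -0.61 (edgeR adjusted p = 0.00282), while HLA-C was -0.30 (0.106) and HLA-B -0.57 (0.0670), neither called. Taking GC from the canonical transcript, an alternative added after the data were seen, gave -0.44 for HLA-C (edgeR adjusted p = 0.0211) and 0.01 for HLA-B (1.00), so the HLA-B value depends on which transcript is taken. In A375, HLA-B measured 14.1 and 14.4 CPM in the controls and 8.72 and 10.5 CPM with PRMT5i. Its log2 difference of -0.58 ± 0.22 was not called (edgeR adjusted p = 0.176), and was called when only the 6 A375 libraries of 72 hours were fitted (0.0111). HLA-C and HLA-E, at 27.9 to 39.2 and 36.2 to 40.7 CPM with PRMT5i in A375, were not called.

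TAPBP fell 2.57-fold in CHL1, from 79.1 and 75.7 to 25.9 and 33.5 CPM (log2 -1.36 ± 0.17, edgeR adjusted p = 0.000113; -0.36 with GC correction, adjusted p = 0.0289). TAP2 fell 1.44-fold, from 40.9 and 37.5 to 27.3 and 26.6 CPM (-0.52 ± 0.15, edgeR adjusted p = 0.0119; -0.50 with GC correction), and lost the call without control replicate 1 (0.102). B2M replicates disagreed, at 228 and 139 CPM around controls of 192 and 168 CPM, and its difference of 0.05 ± 0.21 was not called (edgeR adjusted p = 0.882). B2M belongs to the GC-poor genes that read higher in these libraries, and with GC correction its value turned to -0.87 (edgeR adjusted p = 0.00840). In A375, TAPBP measured 61.1 and 65.0 CPM with PRMT5i, TAP2 92.3 and 113 CPM and B2M 309 and 396 CPM, none called.

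**Figure D4:**
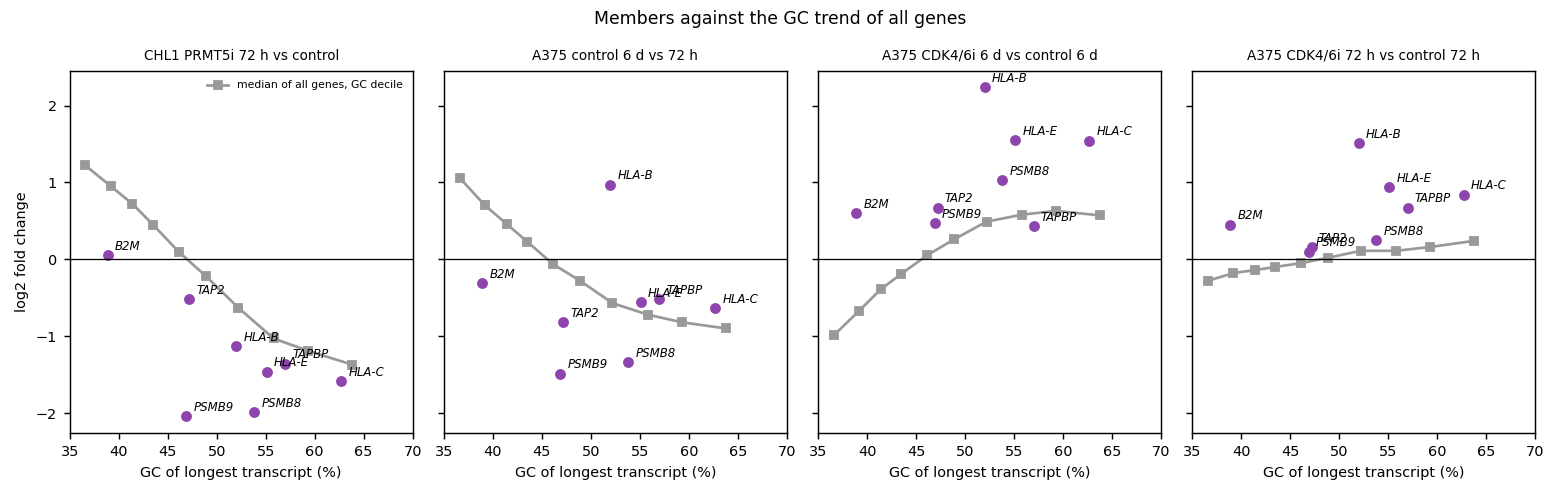
Log2 fold change of the 8 genes (purple points) against the GC content of the longest transcript (%), with the median of all genes in each GC decile (grey squares) for 4 comparisons. With PRMT5i in CHL1 the grey line falls as GC rises, HLA-C lies near it at -1.59 and PSMB9 and PSMB8 lie below it, whereas HLA-B lies above the line in both A375 CDK4/6i comparisons.

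Differences between times, drugs and lines were tested directly. The CDK4/6i change at 6 days against that at 72 hours was called for 0 of the 8 genes in CHL1 (0.0145% of all genes; 1 of 8 with an unadjusted p under 0.05) and for 0 in A375, each time set against its own control (1.08% of all genes; 4 of 8). The largest of these in A375 were 0.78 for PSMB8, 0.73 for HLA-B and 0.70 for HLA-C on the log2 scale, and with GC correction they were 0.45, 0.41 and 0.35, not called. Without the A375 6-day control replicate 2, the more weakly GC-trended of that pair, HLA-E, PSMB8 and TAP2 were called in A375 (edgeR adjusted p = 0.00435, 0.00188 and 0.0115). With all libraries used, none of the 8 genes passed the test for a different response at 6 days.

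Between the drugs at 72 hours, 7 of the 8 genes were lower with PRMT5i than with CDK4/6i in CHL1 (57.8% of all genes called in either direction) and 4 of 8 in A375 (5.45%). The A375 libraries of this contrast are not among the 4 with the GC trend. Their GC difference was still 0.41 and 0.50 with CDK4/6i against 0.12 and 0.22 with PRMT5i. With GC correction 6 of 8 genes were called lower in A375, and 2486 of 16363 genes in either direction. The uncorrected A375 values follow. There, HLA-B was lower by -2.09 ± 0.22 on the log2 scale (edgeR adjusted p = 0.000144), HLA-C by -1.16 ± 0.21 (0.00596), HLA-E by -1.08 ± 0.18 (0.00334) and TAPBP by -0.87 ± 0.17 (0.00877). Leaving out a library kept the HLA-B call each time, kept HLA-C and HLA-E in 1 of 4 fits each and TAPBP in 0 of 4. In CHL1 the heavy chains differed by -2.26 (HLA-C), -2.04 (HLA-E) and -2.01 (HLA-B), PSMB8 by -1.95 and TAPBP by -1.74. With GC correction these were -0.79, -1.14, -1.44, -1.21 and -0.66, all called. PSMB9 (-1.37) and TAP2 (-0.50) kept their CHL1 calls in 2 of 4 such fits each. B2M, at -0.26 in CHL1, was not called in either line, and with GC correction it was called in both, at -1.25 in CHL1 (edgeR adjusted p = 0.000589) and -0.55 in A375 (0.0341). PSMB8 was then also called in A375, at -0.50 (edgeR adjusted p = 0.0452).

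Between the lines, the CDK4/6i change at 72 hours was called different for 0 of 8 genes (0.642% of all genes; 1 of 8 with an unadjusted p under 0.05, HLA-B with a CHL1 minus A375 difference of -0.68). At 6 days it was called for 2 of 8 (21.9%), HLA-E at -0.65 ± 0.23 (edgeR adjusted p = 0.0473) and PSMB8 at -1.25 ± 0.35 (0.0176). With GC correction these were -0.19 (edgeR adjusted p = 0.370) and -0.81 (0.0410), and TAPBP was called in the opposite direction, at 0.64 (0.00588). Of 8 fits that left out a library, HLA-E kept its call in 2 and PSMB8 in 6 (edgeR adjusted p up to 0.166 and 0.0693). The PRMT5i change was called different for 6 of 8 genes (40.9%), all more negative in CHL1. PSMB9 differed by -2.03 ± 0.44 (edgeR adjusted p = 0.00148), PSMB8 by -1.71 ± 0.36 (0.00133), HLA-E by -1.36 ± 0.23 (0.000411), HLA-C by -1.30 ± 0.31 (0.00316), TAPBP by -1.20 ± 0.22 (0.000644) and TAP2 by -0.68 ± 0.23 (0.0255). With GC correction PSMB9 was -2.04 (edgeR adjusted p = 0.00369), PSMB8 -0.95 (0.0242), TAP2 -0.64 (0.0301) and HLA-E -0.46 (0.0421). TAPBP was then -0.14 (edgeR adjusted p = 0.557) and HLA-C 0.09 (0.874), and B2M was called as well, at -0.95 (0.0238). That made 5 genes called, against 4 with GC taken from the canonical transcript. Without a library, the TAP2 call held in 3 of 8 fits (edgeR adjusted p up to 0.150) and the other 5 genes kept theirs in all 8.

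The A375 controls at 6 days and 72 hours differed for 7 of the 8 genes, 6 lower and 1 higher at 6 days, against 47.8% of all genes in either direction. HLA-B was the higher one, at 31.7 and 26.0 against 14.1 and 14.4 CPM (log2 0.97 ± 0.21, edgeR adjusted p = 0.00147; 1.37 with GC correction). PSMB9 was lower by -1.49, PSMB8 by -1.34, TAP2 by -0.82, HLA-C by -0.64, HLA-E by -0.56 and TAPBP by -0.52. Of 4 fits without a library, HLA-C kept its call in 1, HLA-E and TAPBP in 2 each, TAP2 in 3, and the others in all. With GC correction HLA-C, HLA-E and TAPBP turned to 0.22, 0.02 and 0.15. Summed epithelial markers were 186 to 207 CPM in the 72-hour controls and 18.6 to 38.9 CPM in the 6-day controls. Melanocyte markers were 157 to 165 and 233 to 346 CPM in the same order. These controls differ in time and in library set, which cannot be told apart, and the 6-day CDK4/6i comparison in A375 rests on the later pair. Set against the 72-hour control instead, the 6-day CDK4/6i libraries had 3 of 8 genes called higher and 1, PSMB9, lower (-1.02, edgeR adjusted p = 0.00359).

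Other genes of the pathway were counted over lists chosen by function, to be read against the shares of all genes called. With CDK4/6i these were 2.27% higher and 2.72% lower, then 8.83% and 7.80%, in CHL1 (72 hours, then 6 days), and 6.22% and 7.11%, then 21.8% and 21.3%, in A375. With PRMT5i in CHL1 they were 26.4% and 27.6%. Counts with GC correction have another background, given here as genes called higher and lower among 16363. With CDK4/6i these were 1079 and 1151, then 2346 and 2296, in CHL1, and 1830 and 2138, then 3290 and 2912, in A375. With PRMT5i in CHL1 they were 2392 and 2390. Among 9 other class I and class I-like heavy chains in the table (of 12 listed), 2 rose and 0 fell with CDK4/6i in CHL1 at 72 hours and 4 rose at 6 days. In A375, 2 rose at 72 hours and 6 at 6 days, with 0 lower. The medians in that order were 0.30, 0.63, 0.79 and 1.31 on the log2 scale, beside 0.00, 0.03, 0.00 and 0.10 for all genes. MR1, which presents microbial vitamin metabolites, rose by 1.04 (edgeR adjusted p = 0.0465), 2.05, 1.70 and 1.38. HLA-F and FCGRT, the neonatal Fc receptor, rose most in A375 at 6 days, by 2.27 and 2.06. With PRMT5i 6 of 9 fell in CHL1, HLA-F by -1.90 (-0.92 with GC correction) among them, and 0 were called in A375. With GC correction the counts higher and lower were 3 and 0, then 5 and 1, in CHL1 with CDK4/6i, 4 and 0 at each time in A375, and 0 and 4 with PRMT5i in CHL1.

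The loading and trimming genes shape the peptide and help the heavy chain to fold. Of 13 loading and trimming genes in the table (of 14), 0 rose and 1 fell at each time in CHL1, 1 rose and 1 fell in A375 at 72 hours, and 3 rose and 2 fell at 6 days. Calreticulin (CALR), which holds new heavy chains, rose in A375 at 6 days (log2 0.99, edgeR adjusted p = 0.00347; 0.55 with GC correction) and was 0.36 there at 72 hours (0.347, not called). The difference between these times, 0.63, was not called (edgeR adjusted p = 0.293). Values in CHL1 were 0.06 and -0.28, not called, and calnexin (CANX) and PDIA3 were not called in any treatment comparison. Of 17 proteasome genes in the table (of 19), 0 were called at 72 hours in either line, 2 fell in CHL1 at 6 days and 5 rose in A375 at 6 days. With PRMT5i in CHL1, 4 loading genes rose and 4 fell, and 4 proteasome genes rose and 10 fell; with GC correction these were 0 and 5, and 1 and 8. CALR fell by -1.69 (-0.95 with GC correction). PSMB10, the remaining immunoproteasome subunit, fell by -1.98 (-0.76 with GC correction, edgeR adjusted p = 0.136), while the standard subunits PSMB6, PSMB5 and PSMB7 fell by -1.28, -0.55 and -0.46. With GC correction these 3 were -0.48 (edgeR adjusted p = 0.0271), 0.05 (0.835) and -0.15 (0.402), so PSMB5 turned and PSMB7 lost its call.

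Of 16 transcription factors that act on class I or its shared promoter elements, 0 were called in CHL1 at either time of CDK4/6i, whereas 2 rose and 2 fell in A375 at 72 hours and 5 rose and 4 fell at 6 days, against 21.8% and 21.3% of all genes. CIITA, the class II transactivator that can also act on class I promoters, measured 15.3 to 15.8 CPM in the A375 72-hour controls and 45.5 to 57.8 CPM with CDK4/6i (log2 1.67, edgeR adjusted p = 9.79e-05). At 6 days it measured 45.5 to 60.3 against 261 to 310.2 CPM (2.43, edgeR adjusted p = 2.77e-06). In CHL1 CIITA was between 0.43 and 1.34 CPM in every library. NLRC5, the class I transactivator, measured 37.9 to 45.1 CPM in the A375 72-hour controls and 7.13 to 7.32 CPM in the CHL1 controls. It rose in A375 at 6 days by 1.04 ± 0.21 (edgeR adjusted p = 0.00105, and 0.50 with GC correction) and was 0.09 at 72 hours (adjusted p = 0.823). Whether any of these factors had a part in the class I changes was not tested. With PRMT5i in CHL1, 4 factors rose and 7 fell (2 and 5 with GC correction). NLRC5 fell by -1.28 (edgeR adjusted p = 0.00124) and IRF1, an interferon-induced activator, by -1.38 (0.000879), and with GC correction these were -0.23 (0.394, not called) and -0.77.

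Of 11 interferon receptor and signalling genes in the table (of 15), 1 rose and 0 fell in CHL1 at 72 hours, 1 rose and 2 fell at 6 days, 2 rose and 0 fell in A375 at 72 hours, and 2 rose and 2 fell at 6 days. STAT2, which carries the signal of type I interferon to the nucleus, rose in all 4 comparisons, by 0.91 and 1.21 in CHL1 and 0.84 and 1.40 in A375 on the log2 scale, and by 0.92, 1.25, 0.76 and 1.07 with GC correction. With GC correction the counts higher and lower in this list were 2 and 1 in CHL1 at 72 hours, 5 and 2 at 6 days, and in A375 3 and 1, then 5 and 1. With PRMT5i in CHL1, 6 of the 11 rose and 4 fell, against 26.4% and 27.6% of all genes. With GC correction 2 rose and 3 fell, against 2392 higher and 2390 lower among 16363 genes. STAT2 was at -1.23 and JAK2 at 1.53 with PRMT5i in CHL1 (-0.80 and 0.40 with GC correction), and 0 of the list were called in A375.

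**Figure D5:**
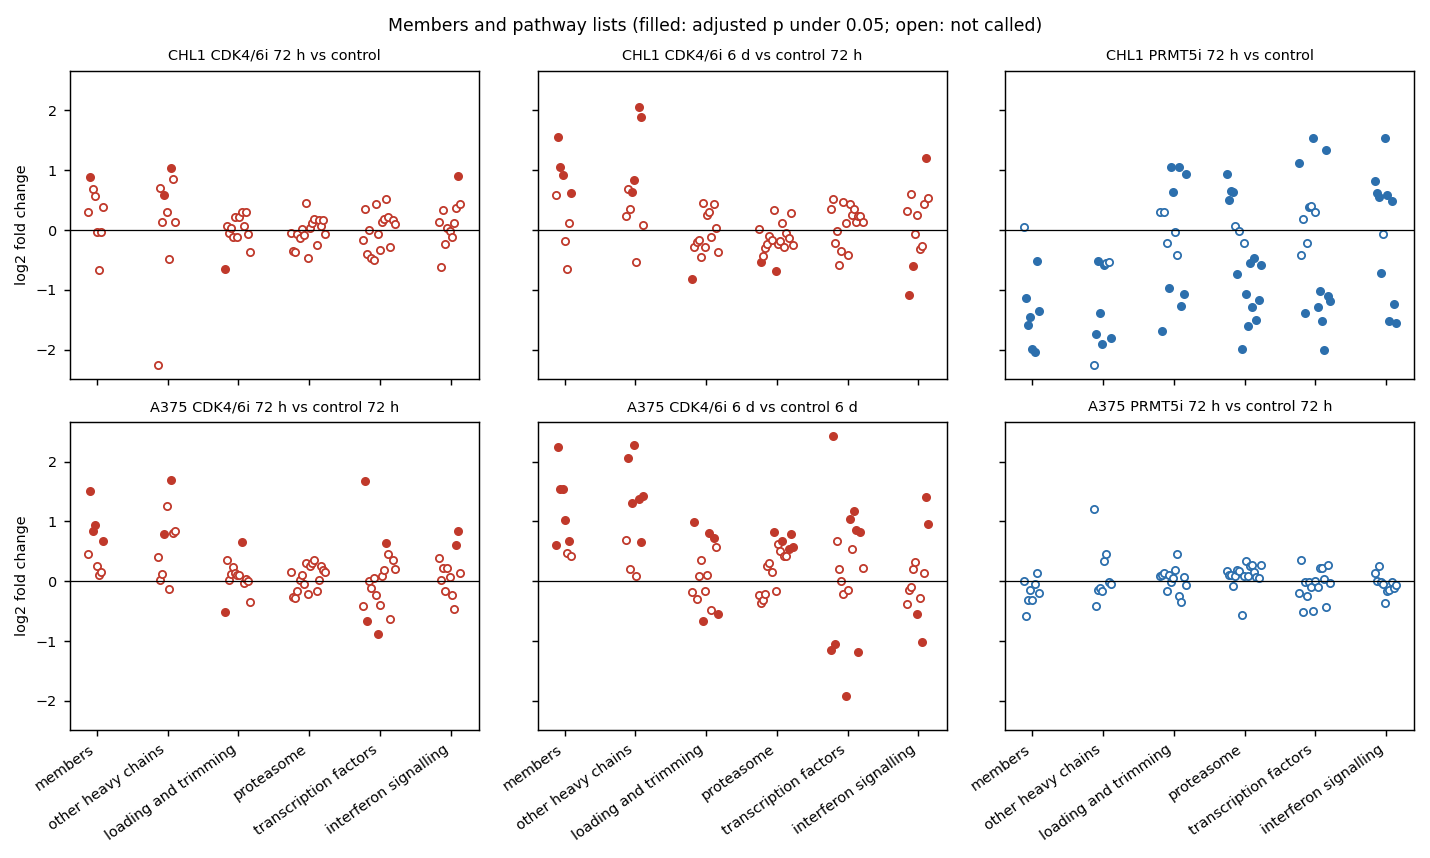
Log2 fold change of each of the 8 genes and of each gene in the 5 pathway lists, for the 6 treatment comparisons; each point is a gene, filled where the edgeR adjusted p was under 0.05. In A375 at 6 days of CDK4/6i, 6 of the chosen genes and 6 of the other heavy chains are filled above 0 and 0 below, beside 5 proteasome genes above 0, and with PRMT5i in A375 no point is filled.

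The genes whose pattern was most like the average of the 8 were ranked over 15658 genes by Pearson correlation across the 18 libraries, centred within each line. Among the nearest were SLC39A7 (0.98), LGMN (0.98), TADA2B (0.98) and RETSAT (0.97). Without the 4 libraries with a GC trend, the correlations over 14 libraries were 0.92, 0.94, 0.94 and 0.91. Of the 8 genes themselves, HLA-E (0.96), HLA-C (0.95) and TAPBP (0.94) lay closest to the shared pattern and HLA-B (0.60) and PSMB9 (0.61) furthest from it. Each of the 8 is part of the average it was compared with, so these values are not on a par with those of outside genes. Without the 4 libraries the order changed, with B2M and TAPBP at 0.91, HLA-C at 0.82, HLA-E at 0.80, HLA-B at 0.55 and PSMB9 at 0.06.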

How the data were processed

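RNA from CHL1 and A375 cells was prepared with TruSeq RNA kits and sequenced. Per the labels and the study's methods, the authors aligned reads to GRCh37 with HISAT2 (2.0.4 in the submitters' processing notes, which also name FastQC 0.11.6, Picard 2.17.3, SAMtools 1.18 and HTSeq 0.11.2) and deposited raw counts per gene from HTSeq. The deposited counts were tested here in R 4.3.3 with edgeR 4.0.16: TMM scaling, quasi-likelihood F test, Benjamini-Hochberg adjustment over all 20705 genes, threshold 0.05, no filter on low counts. Comparisons within a line used its 8 or 10 libraries, and comparisons across lines used all 18. Groups came from the sample labels.

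GC correction fitted log2 level against transcript GC in each library (loess, span 0.4) and used the fit as an offset. GC values came from GENCODE 44 on GRCh37 for 16363 genes, 15208 matched by symbol and 1155 by an older symbol. Other alternatives were DESeq2 1.42.0, limma 3.58.1 (voom), median-of-ratios scaling, a filter of 1 CPM in 2 libraries, other sets of libraries, a replicate block, and leaving out each library. Canonical-transcript GC, and leaving out libraries or blocking in the direct contrasts, were added after seeing the data. Scripts were tested on simulated data.

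The genes and lists were chosen with earlier results of these data known. The chosen genes were all to be named. List genes were named if called in a treatment comparison, largest first, at most 4 a list, and NLRC5, IRF1, PSMB5, PSMB6, PSMB7, CALR, CANX and PDIA3 in any case. Genes of like pattern were the top 5 outside the lists with a mean of at least 1 CPM. A few genes that these rules name are not reported here.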

Additional observations from a re-analysis of the deposited data

Results flagged for a closer look

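In the PRMT5i response, a test of the difference between the lines (edgeR interaction contrast, CHL1 minus A375, log2 scale) singled out 6 of the 8 genes: PSMB9 at -2.03, PSMB8 at -1.71, HLA-E at -1.36, HLA-C at -1.30, TAPBP at -1.20 and TAP2 at -0.68. The CHL1 PRMT5i libraries carry the GC trend, and with GC correction PSMB9, PSMB8, TAP2 and HLA-E kept an adjusted p under 0.05, at -2.04, -0.95, -0.64 and -0.46. HLA-C turned to 0.09, TAPBP moved to -0.14, and B2M gained a call at -0.95 (adjusted p = 0.0238). With GC taken from the canonical transcript 4 of the 8 genes were called, against 5 here, beside 3352 and 3426 of 16363 genes. In the 6-day CDK4/6i response the same kind of test singled out PSMB8 at -1.25 and HLA-E at -0.65. With GC correction PSMB8 was -0.81 (adjusted p = 0.0410), HLA-E was -0.19 (0.370), and TAPBP gained a call in the opposite direction at 0.64 (0.00588). CHL1 has no 6-day control, and the A375 6-day controls carry the GC trend.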

How the results depend on the processing

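Of 1496 values of the 8 genes under alternatives, 1305 kept direction and side of the threshold, 79 lost the call, 54 gained it and 58 turned sign; where a value changed and the alternative itself does not show the cause, the cause was not tested. The 72-hour CDK4/6i count in CHL1 (1 gene) was 3 with DESeq2 and with either GC correction, 2 with all libraries fitted, 4 with the compared groups only, and 0 with limma voom, the low-count filter or the replicate block. Over all genes, 1032 were called there in the main fit, 1675 with DESeq2, 953 with all libraries and 4202 with the compared groups only. Limma voom called 708, the low-count filter 1040 of 15181, the block 796 and the GC corrections 2230 and 2337 of 16363. The A375 PRMT5i count (0) was 1 with only the 72-hour libraries and 3 (HLA-B, HLA-C, PSMB8) with the replicate block added. Of all 20705 genes, these fits called 3265 and 6113, against 541 in the main fit. The 6-day count between lines (2) was 1 with median-of-ratios scaling. Replicate numbers are shared, but whether same-numbered libraries were grown together is not given, and 2 pairs a comparison cannot settle it. Over 15658 genes, deviations of same-numbered treated and control libraries correlated at 0.48 for A375 PRMT5i and 0.44 for CHL1 CDK4/6i at 72 hours. The other correlations were 0.22 (A375 CDK4/6i at 72 hours), 0.15 (CHL1 PRMT5i) and 0.03 (CHL1 CDK4/6i at 6 days). The block moved no other count by over 1.5 times.

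Leaving out 1 library gave these ranges of genes called: 0 to 0 for CHL1 CDK4/6i at 72 hours, 1 to 4 for CHL1 at 6 days (1 without control replicate 2), 2 to 2 for A375 at 72 hours, 0 to 3 for A375 6 days minus 72 hours (3 without the 6-day control replicate 2), 1 to 2 for PRMT5i against CDK4/6i in A375, 0 to 4 for the 6-day difference between lines, and 3 to 7 for the A375 controls.

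Values that turned sign under another setting were, on the log2 scale, as follows. With GC correction (longest, then canonical transcript): TAP2 0.02 and 0.01 in CHL1 CDK4/6i at 72 hours; B2M -0.87 and -0.88 in CHL1 PRMT5i, with HLA-B 0.01 by the canonical transcript; TAPBP -0.12 and -0.11 in A375 at 6 days; B2M 0.10 and 0.10 in A375 PRMT5i; for the PRMT5i difference between lines B2M -0.95 and -0.96, HLA-B 0.02 and 0.62, and HLA-C 0.09; and for the A375 controls HLA-C 0.22 and 0.15, HLA-E 0.02, and TAPBP 0.15 and 0.14. With DESeq2 and median-of-ratios scaling, B2M was 0.00 in A375 PRMT5i and 0.03 in the 6-day line difference, and PSMB9 was -0.03 and -0.02 in CHL1 6 days against 72 hours. With all libraries fitted B2M was 0.01 in A375 PRMT5i. Against the 72-hour control, A375 6-day PSMB8 was -0.30, PSMB9 -1.02, TAP2 -0.16 and TAPBP -0.09. Against the A375 6-day control, CHL1 PSMB8 was 0.23.

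Leaving out a library turned these, with their ranges. B2M went from -0.06 to 0.31 in A375 6 days minus 72 hours, -0.18 to 0.15 in A375 PRMT5i, -0.35 to 0.36 in CHL1 PRMT5i, -0.66 to 0.05 in CHL1 PRMT5i against CDK4/6i, and -0.22 to 0.10 and -0.36 to 0.39 in the 6-day and PRMT5i line differences. PSMB9 went from -0.06 to 0.25 in A375 CDK4/6i at 72 hours, -0.15 to 0.08 in A375 PRMT5i, -0.29 to 0.02 in A375 PRMT5i against CDK4/6i, and -0.55 to 0.39 in CHL1 6 days against 72 hours. PSMB8 went from -0.43 to 0.01 in CHL1 at 6 days and -0.40 to 0.05 against 72 hours. TAP2 went from -0.02 to 0.26 in A375 PRMT5i, -0.18 to 0.09 against CDK4/6i, and -0.09 to 0.03 in CHL1 CDK4/6i at 72 hours. HLA-E went from -0.03 to 0.11 between the untreated lines. With 2 libraries a group and 12 to 56 PSMB9 reads in CHL1, small changes of that gene were not detectable at this depth.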
